A study of Mus musculus with 27 samples.

Results

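The antioxidant enzymes examined in epididymal adipose tissue (EAT) were 10 genes, namely Cat, Sod1, Sod2, Sod3, Gpx1, Gpx3, Gpx4, Prdx2, Prdx3 and Prdx5. They were matched by symbol among the 18194 genes that have a probe set of their own on the array, and each was read by the brightest of its probe sets, taken as the mean over 27 arrays. Of the 10 genes, 9 were measured in this way, and Prdx5 was not analysed here. RNA came from male C57BL/6J mice fed 1 of 3 diets for 18 weeks, 9 per diet, and each mouse had an Affymetrix array of its own. All mice arrived at 5 weeks of age, ate a standard diet for 1 week, and were then kept 3 per cage. The control mice ate AIN93G, a purified rodent diet. The mice called WD ate a Western diet that drew 39.9% of its energy from fat, with 20% unsalted butter, 1% soy oil and 0.15% cholesterol in the diet, and 34.0% of its energy from sucrose. The mice called WQ ate that same Western diet with 0.05% quercetin, a plant flavonol, so that no group received quercetin on the control diet. The cages are not given, so differences between mice and between cages cannot be told apart.

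Superoxide is released by the respiratory chain and by NADPH oxidases, and superoxide dismutases turn it into hydrogen peroxide. Catalase, glutathione peroxidases and peroxiredoxins then remove the peroxide, each in its own place in or outside the cell. Of the genes measured, Sod1, Gpx1, Gpx4 and Prdx2 act mainly in the cytosol, Sod2 and Prdx3 in mitochondria, Cat in peroxisomes, and Sod3 and Gpx3 are secreted. The comparisons ask how these transcripts differed between the diets, and whether those of mice given quercetin differed from those of mice on the Western diet alone.

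The promoters of 4 of these genes are shown because their transcripts carry the differences described further on. Sod1, Prdx3 and Gpx3 were lower in WD mice than in control mice, and Cat had the highest rise in mean signal from WD to WQ mice. Each sequence is the 250 bases before the transcription start from RefSeq, read 5′ to 3′ on the strand of the gene. The capitals mark 4 motifs searched on both strands, namely the antioxidant response element core TGACNNNGC, the GC box GGGCGG, the CCAAT box (CCAAT, or ATTGG on the other strand) and the TATA box TATAAA.
Sod1, GRCm38.p6 chr16:90220512-90220761, plus strand: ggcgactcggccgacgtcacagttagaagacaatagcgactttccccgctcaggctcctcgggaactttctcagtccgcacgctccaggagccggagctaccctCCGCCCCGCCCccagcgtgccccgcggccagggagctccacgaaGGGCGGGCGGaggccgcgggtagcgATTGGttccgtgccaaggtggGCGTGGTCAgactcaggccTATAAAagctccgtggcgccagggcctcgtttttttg
Prdx3, GRCm38.p6 chr19:60874539-60874788, minus strand: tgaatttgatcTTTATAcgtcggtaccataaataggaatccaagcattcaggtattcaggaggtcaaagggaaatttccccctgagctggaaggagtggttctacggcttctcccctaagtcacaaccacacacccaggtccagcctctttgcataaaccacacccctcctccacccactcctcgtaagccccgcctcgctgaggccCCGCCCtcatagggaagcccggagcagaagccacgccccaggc
Gpx3, GRCm38.p6 chr11:54902604-54902853, plus strand: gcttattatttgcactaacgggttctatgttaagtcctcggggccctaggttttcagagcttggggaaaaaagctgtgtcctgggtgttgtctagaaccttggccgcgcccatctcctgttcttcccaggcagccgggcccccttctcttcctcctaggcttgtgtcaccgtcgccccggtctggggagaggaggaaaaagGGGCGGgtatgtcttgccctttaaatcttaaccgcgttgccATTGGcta
Cat, GRCm38.p6 chr2:103485154-103485403, minus strand: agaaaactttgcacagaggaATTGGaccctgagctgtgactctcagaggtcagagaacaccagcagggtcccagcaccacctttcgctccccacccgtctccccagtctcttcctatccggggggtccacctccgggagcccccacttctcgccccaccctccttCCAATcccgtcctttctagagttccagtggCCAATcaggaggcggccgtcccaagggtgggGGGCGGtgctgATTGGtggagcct
The Sod1 window held the antioxidant response element core on the other strand, with its first printed base at position -56, and a TATA box at position -37, counted back from -1 at the base before the start. Its GC boxes lay in pairs that overlap each other. Among the 9 enzymes with a promoter in the RefSeq table, which were all but Sod3, the antioxidant response element core was found in 1, the TATA box in 2, the CCAAT box in 5 and the GC box in 7. A gene was counted if any of its windows held the motif. By window, of 12 from these enzymes, 1 held the antioxidant response element core, 2 the TATA box, 7 the CCAAT box and 9 the GC box. Of all 32851 promoter windows of that length, 10.2% held the antioxidant response element core, 12.4% the TATA box, 33.8% the CCAAT box and 32.7% the GC box. A match describes letters in this window and is not a measured binding site.

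Before the comparisons, the arrays were checked against markers of the cells that EAT holds. The deposited signals had medians from 25.2 to 54.4 per array and were normalized between arrays by quantiles, so each log2 signal given here is a normalized level, and levels of different genes are not compared. The extraction notes of the deposit name liver, whereas titles, sources and methods name EAT. The summed signal of 8 adipocyte markers ran from 47400 to 58300 in control mice, from 52700 to 58900 in WD mice and from 53300 to 58600 in WQ mice. The adipocyte genes Adipoq and Fabp4 had mean log2 signals of 13.46 and 13.83 in control mice. Liver markers had a mean log2 signal above 8 on 8 arrays, from 8.14 to 11.81, and that of the remaining arrays was at most 7.71. These 8 were control replicates 1 and 4, WD replicates 1, 4, 5 and 6, and WQ replicates 5 and 8. Fits without them thus hold fewer mice, fewest in the WD group. For WD over control 5 of the 6 liver markers had positive values, while Cyp2e1, at 13.21 in control mice, had -1.33 (adjusted p = 7.4e-04 from limma). Testis markers exceeded 8 on control replicate 6 (12.65), WD replicate 7 (8.77) and WQ replicate 5 (8.52), and smooth muscle markers exceeded 10 on control replicates 2 and 4 (11.86 and 12.38). For each enzyme whose call was lost without these arrays, the values with and without them are given.

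**Figure D1:**
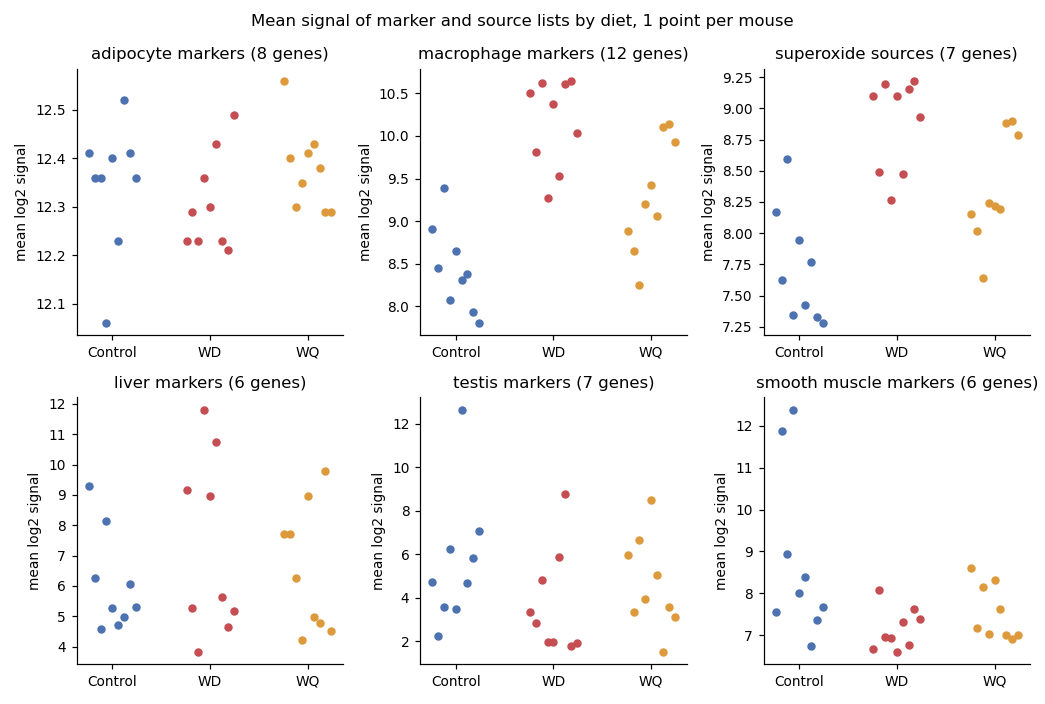
Mean log2 signal (y axis) of 6 gene lists in each mouse, by diet (x axis), with 1 point per mouse and 9 mice per diet, placed from left to right by replicate number. Macrophage markers and superoxide sources lay higher in WD mice than in control mice. Testis and smooth muscle markers stood apart on single arrays, while liver markers spread widely and exceeded 8 on 8 arrays.

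The Western diet went with a shift in the secreted enzymes and in Sod1 and Prdx3, and with little difference in Gpx1, Gpx4, Prdx2 and Cat. Against control, 1 of 9 enzymes was higher, the secreted dismutase Sod3, and 3 of 9 were lower, namely Sod1, Prdx3 and Gpx3 (limma with Benjamini-Hochberg adjustment over all genes, adjusted p under 0.05). Of all 18194 genes, 11.3% were higher and 6.42% were lower in the same comparison. The median log2 fold change over the 9 enzymes was -0.02, and that over all genes was 0.00029. The test over the 3 diets passed for Sod1, Prdx3, Cat, Sod3 and Gpx3, 5 of 9 enzymes, and for 16% of all genes.

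**Figure D2:**
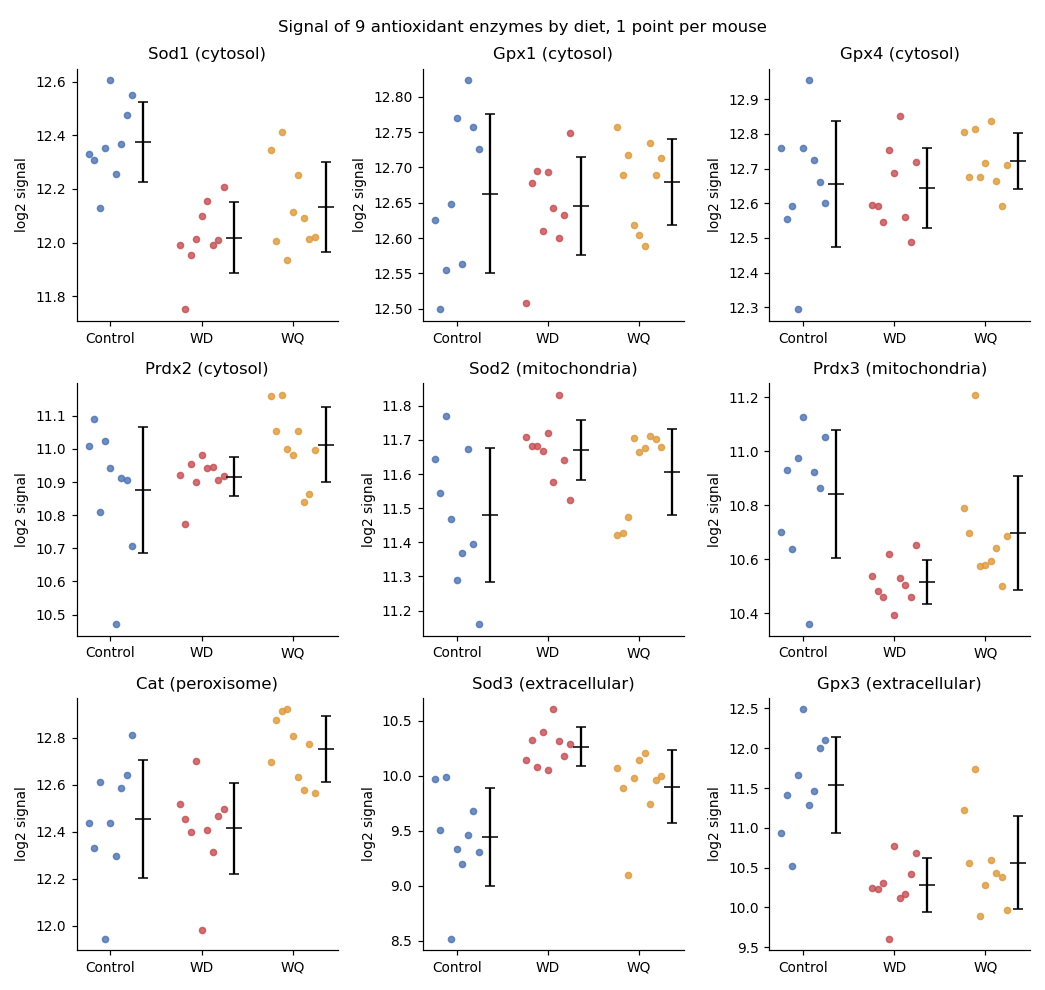
Log2 signal (y axis, scaled to each gene) of the 9 enzymes in each mouse, by diet (x axis), with 1 point per mouse and a bar for the mean ± SD of 9 mice. Sod3 in WD mice lay above every control mouse, and Gpx3 and Sod1 lay mostly below the control mice.

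In the cytosol, Sod1, the copper and zinc dismutase, was lower in WD mice. Its log2 signal in control mice ran from 12.13 to 12.61 with a median of 12.35, in WD mice from 11.75 to 12.21 with a median of 12.01, and in WQ mice from 11.93 to 12.41 with a median of 12.09. The ranges overlapped slightly, with 7 of 9 WD mice below every control mouse. The mean fell from 12.38 ± 0.15 to 12.02 ± 0.13 (SD, n = 9), a log2 fold change of -0.36 (SE 0.07) or 0.781-fold, with an adjusted p of 8.7e-04 from limma. In WQ mice the mean was 12.13 ± 0.17 (SD, n = 9), 0.11 above WD on the log2 scale (95% interval -0.03 to 0.26, adjusted p = 0.53) and 0.24 below control (adjusted p = 0.041). That last difference no longer passed when any 1 of 11 arrays was left out, namely control replicates 4, 5, 7, 8 and 9 and WQ replicates 2, 4, 5, 7, 8 and 9, and its adjusted p over all 27 such fits ran from 0.014 to 0.087. It also did not pass without the 5 arrays high in testis or smooth muscle markers (-0.27, adjusted p = 0.079) or without the 8 high in liver markers (-0.23, adjusted p = 0.21).

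A further Sod1 probe set of nearly the same level, with a mean of 12.08 over all arrays, gave a log2 fold change of -0.31 for WD over control (adjusted p = 0.012 over all probe sets). For WQ over WD it gave 0.28 (adjusted p = 0.13), and for WQ over control -0.04 (adjusted p = 0.86). Both probe sets thus placed Sod1 lower in WD mice, and they differed in how far the quercetin group lay from the control group. Of the 3 dim Sod1 probe sets, those with means of 5.65 and 1.53 also had negative values for WD over control, -0.78 and -0.48, and the one with a mean of 8.00 had 0.06.

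Gpx1, the main cytosolic glutathione peroxidase, had almost the same normalized signal on all diets. Its mean lay at percentile 99.5 of all genes, where quantile normalization sets values by rank. With the arrays scaled to equal medians instead, WD differed from control by 0.13 (adjusted p = 0.49 from limma). Its log2 signal ran from 12.50 to 12.82 in control mice, from 12.51 to 12.75 in WD mice and from 12.59 to 12.76 in WQ mice. The 3 ranges overlapped throughout. The difference of WD from control was -0.02 on the log2 scale (95% interval -0.12 to 0.08), and that of WQ from WD was 0.03 (95% interval -0.07 to 0.13, adjusted p = 0.84). 

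Gpx4, which reduces lipid hydroperoxides in membranes, had mean log2 signals of 12.66 ± 0.18, 12.64 ± 0.12 and 12.72 ± 0.08 in control, WD and WQ mice (SD, n = 9). Control mice spread from 12.29 on replicate 4 to 12.96 on replicate 6, wider than the mice of either other diet. Control replicate 6 was the array with the highest testis markers, and Gpx4 is known for its abundance in testis. The part of testis RNA in the spread of Gpx4 among control mice was not tested. The difference of WQ from WD was 0.08 (95% interval -0.06 to 0.21, adjusted p = 0.68), and 0.07 without the arrays high in testis or smooth muscle markers. No difference in Gpx4 passed the test in any of the 3 comparisons.

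Prdx2, a peroxiredoxin of the cytosol, ran from 10.47 to 11.09 in control mice (median 10.91), from 10.78 to 10.98 in WD mice (median 10.92) and from 10.84 to 11.16 in WQ mice (median 11.00). Of 9 WQ mice, 7 lay above every WD mouse. The mean difference was 0.10 on the log2 scale (95% interval -0.04 to 0.23), with an adjusted p of 0.56 from limma and an unadjusted p of 0.037 from the exact two-sided permutation test. Its dimmer probe set, with a mean of 8.69, gave 0.08 for the same comparison and 0.26 for WQ over control (adjusted p = 0.036 over all probe sets), where the probe set used had 0.14 (adjusted p = 0.21).

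In mitochondria, Prdx3, the peroxiredoxin of the matrix, was lower in WD mice. Its log2 signal ran from 10.36 to 11.13 in control mice with a median of 10.92, and from 10.39 to 10.65 in WD mice with a median of 10.51. In WQ mice it ran from 10.50 to 11.21 with a median of 10.64, and its highest mouse, replicate 3, stood apart from the next at 10.79. Of 9 control mice, 7 lay above every WD mouse, while control replicate 6, the array with testis transcripts, lay lowest of all.

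The log2 fold change of Prdx3 in WD mice was -0.33 (SE 0.09), or 0.798-fold, with an adjusted p of 0.0096 from limma. It passed whichever single array was left out, with adjusted p from 7.6e-04 to 0.023, but without the 8 arrays high in liver markers it was -0.33 with an adjusted p of 0.096. In WQ mice the mean was 0.18 above WD (95% interval 0.003 to 0.36, adjusted p = 0.35), and 0.12 above it without WQ replicate 3. Against control it was -0.14 (adjusted p = 0.36), and -0.23 with array weights in the fit (adjusted p = 0.045).

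Sod2, the manganese dismutase of mitochondria, did not move in the same direction as Prdx3. Its log2 signal ran from 11.16 to 11.77 in control mice, from 11.52 to 11.83 in WD mice and from 11.42 to 11.71 in WQ mice. The mean was 11.48 ± 0.20 in control mice and 11.67 ± 0.09 in WD mice (SD, n = 9), a log2 fold change of 0.19 (SE 0.07) with an adjusted p of 0.057 from limma, so that it missed the threshold. It passed when control replicate 1, 3 or 7 or WD replicate 9 was left out, with a lowest adjusted p of 0.017.

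The Sod2 probe sets gave different values. A further probe set of nearly the same level (mean 11.52) had a log2 fold change of 0.38 for WD over control (adjusted p = 4.4e-04 over all probe sets), and -0.19 for WQ over WD (adjusted p = 0.20). Another, of lower level (mean 8.51), had -0.15 for WD over control (adjusted p = 0.31) and 0.17 for WQ over WD (adjusted p = 0.45). The sign of the Sod2 difference between WD and control mice thus changed between probe sets, and it passed the test in 1 of them.

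**Figure D3:**
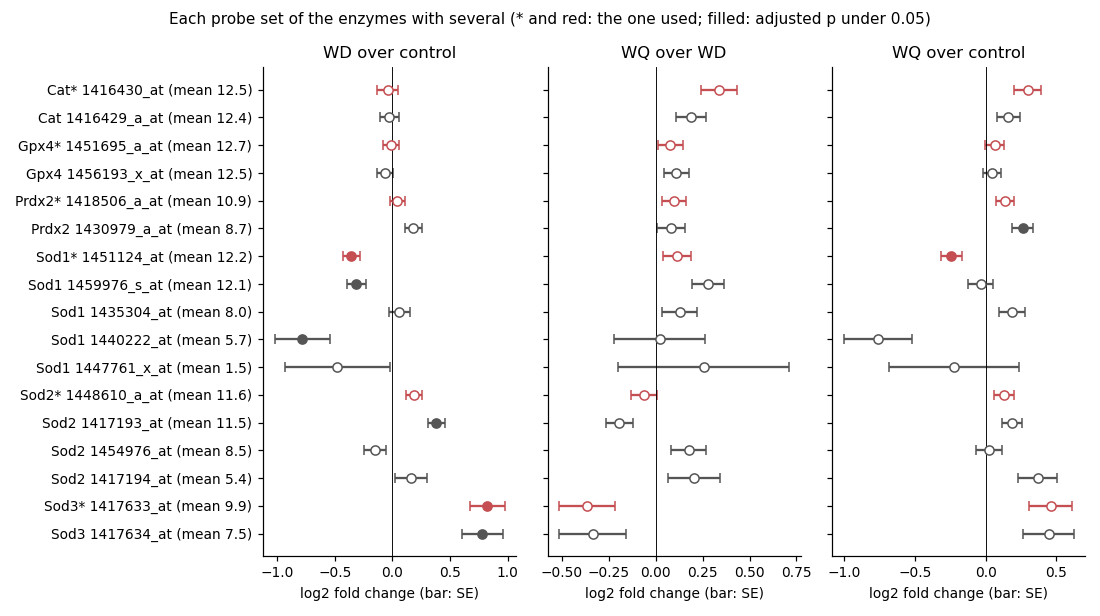
Log2 fold change with its SE (x axis) of each single-gene probe set of the 6 enzymes that have several (y axis, with the mean log2 signal over 27 arrays), in the 3 comparisons. The probe set used is red, and filled points had an adjusted p under 0.05 over all probe sets. The Sod3 probe sets gave like values, whereas those of Sod1 and Sod2 spread on both sides of 0 for WD over control.

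In peroxisomes, Cat, which splits hydrogen peroxide into water and oxygen, was the enzyme with the highest difference upwards between WQ and WD mice. Its log2 signal ran from 11.94 to 12.81 in control mice (median 12.44), from 11.98 to 12.70 in WD mice (median 12.45) and from 12.57 to 12.92 in WQ mice (median 12.77). Of 9 WQ mice, 5 lay above every WD mouse, and 8 of 9 WD mice lay below every WQ mouse. WD differed from control by -0.04 (95% interval -0.23 to 0.15).

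The log2 fold change of Cat for WQ over WD was 0.34 (SE 0.09), or 1.26-fold. Its adjusted p of 0.093 from limma missed the threshold, while the exact two-sided permutation test gave an unadjusted p of 4.5e-04. By the test of the study's methods (Tukey's test after an adjusted test over the 3 diets) it passed, with a p of 0.0043 from Tukey's test. Against control the log2 fold change was 0.30 with an adjusted p of 0.051 from limma, and 0.16 with an adjusted p of 0.34 without the 5 arrays high in testis or smooth muscle markers. That difference passed when control replicate 3, 7, 8 or 9 or WD replicate 4 or 5 was left out, at a lowest adjusted p of 0.029. The other Cat probe set, of nearly the same level (mean 12.45), gave 0.19 for WQ over WD (adjusted p = 0.30 over all probe sets) and 0.16 over control.

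Liver is rich in catalase. WD replicate 4, the array with the highest liver markers (11.81), had the highest Cat signal of its group at 12.70. WD replicate 5 and control replicate 4, also high in liver markers, had the lowest Cat signals of their groups, at 11.98 and 11.94. Control replicate 4 was high in smooth muscle markers too (12.38). The part of liver RNA in the Cat signals was not tested. Without the 8 arrays high in liver markers, the log2 fold change of Cat for WQ over WD was 0.32 (adjusted p = 0.13). The ratio of 3′ to 5′ signal of the actin control probe sets, a measure of RNA integrity, was 1.16 ± 0.17 in WQ mice and 0.81 ± 0.09 in WD mice on the log2 scale (SD, n = 9), an exact permutation p of 8.2e-05 and 4.9e-04 adjusted over 6 such comparisons. That of Gapdh was also higher in WQ mice, by 0.24 (exact permutation p = 0.0059, adjusted p = 0.013), and for neither control did it differ between WQ and control mice beyond the spread between mice (adjusted exact permutation p of 0.57 and 0.32, n = 9). Against control, WD had an actin ratio that differed by -0.24 (adjusted exact permutation p = 0.013, n = 9), and a Gapdh difference of -0.19 (adjusted exact permutation p = 0.071, n = 9). The part of RNA integrity in the differences between diets was not tested.

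Outside the cell, Sod3 and Gpx3 moved in opposite directions in WD mice. Sod3, the dismutase bound to the extracellular matrix, ran from 8.52 to 9.99 in control mice with a median of 9.46, and from 10.05 to 10.60 in WD mice with a median of 10.29. The groups did not overlap, every WD mouse lying above every control mouse, as was so for 0.94% of all genes. The log2 fold change was 0.82 (SE 0.15), or 1.77-fold, with an adjusted p of 2.9e-04 from limma. It was 0.63 without the arrays high in testis or smooth muscle markers (adjusted p = 0.0045) and 0.74 without those high in liver markers (adjusted p = 0.0046).

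Among WQ mice, Sod3 ran from 9.09 to 10.20 with a median of 9.98, and replicate 3 stood apart at the low end from the next mouse at 9.74. The mean of 9.90 ± 0.33 lay between those of control mice, 9.44 ± 0.44, and of WD mice, 10.26 ± 0.17 (SD, n = 9). Against WD the log2 fold change was -0.37 (95% interval -0.67 to -0.06), with an adjusted p of 0.25 and an unadjusted p of 0.021 from limma, and it was -0.27 without WQ replicate 3. Against control it was 0.46 (adjusted p = 0.061), which passed without control replicate 1, control replicate 3 or WQ replicate 3, at a lowest adjusted p of 0.011. The same difference was 0.24 without the arrays high in testis or smooth muscle markers (adjusted p = 0.35) and 0.36 without those high in liver markers (adjusted p = 0.20). The dimmer Sod3 probe set (mean 7.50) had 0.78 for WD over control (adjusted p = 0.0030 over all probe sets) and -0.34 for WQ over WD (adjusted p = 0.44).

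Gpx3, the secreted glutathione peroxidase of plasma and tissue fluid, fell furthest of the 9 enzymes in WD mice. Its log2 signal ran from 10.52 to 12.49 in control mice with a median of 11.46, from 9.61 to 10.77 in WD mice with a median of 10.25, and from 9.89 to 11.74 in WQ mice with a median of 10.44. Of 9 WD mice, 7 lay below every control mouse. The mean fell from 11.54 ± 0.60 to 10.28 ± 0.34 (SD, n = 9), a log2 fold change of -1.26 (SE 0.23) or 0.418-fold, with an adjusted p of 3.3e-04 from limma.

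In WQ mice the mean of Gpx3 was 10.56 ± 0.59 (SD, n = 9). It differed from WD by 0.28 on the log2 scale (95% interval -0.19 to 0.75, adjusted p = 0.67), and from control by -0.98 (adjusted p = 0.012), or 0.508-fold. WQ replicates 1 and 3, at 11.22 and 11.74, lay above every WD mouse, and the other 7 did not. The difference from control passed in each of the 27 fits that left out 1 array, but not without the 5 arrays high in testis or smooth muscle markers (-0.99, adjusted p = 0.056) nor without the 8 high in liver markers (-0.98, adjusted p = 0.077).

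**Figure D4:**
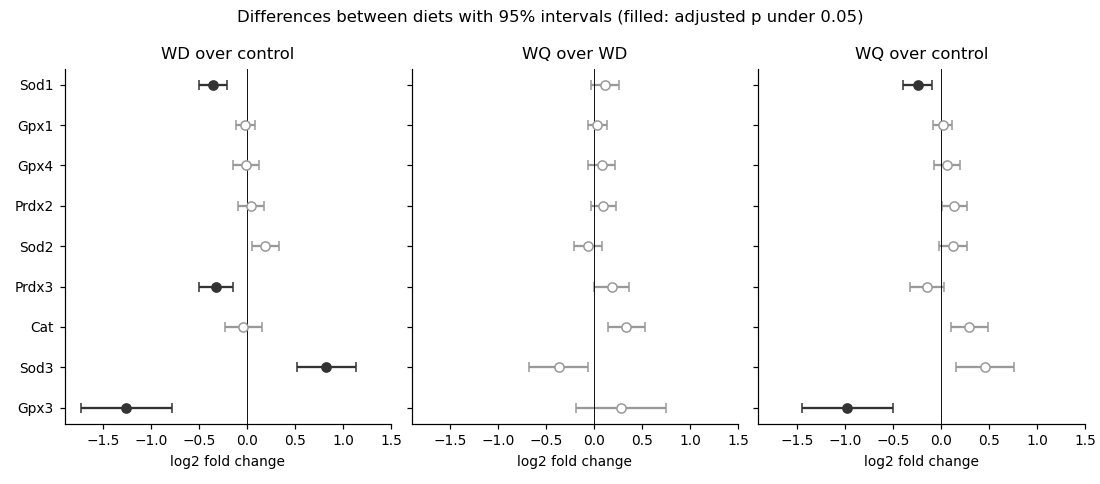
Log2 fold change with its 95% interval (x axis) of the 9 enzymes (y axis) in the 3 comparisons, from 9 mice per diet. Filled points had an adjusted p under 0.05 over all genes, which was so for 4 enzymes in WD over control, for none in WQ over WD and for Sod1 and Gpx3 in WQ over control.

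For WQ over WD, 0 of 9 enzymes passed the limma test in either direction, against 0.253% of all genes higher and 0.0824% lower. At an unadjusted p under 0.05 from limma, 2 of the 9 were higher (Prdx3 and Cat) and 1 was lower (Sod3), where 7.29% of all genes were higher and 6.43% lower. By the test of the methods 1 was higher, Cat, where 2.6% of all genes were higher and 2.93% lower. That test called the same 4 enzymes as limma for WD over control, where it called 7.42% of all genes higher and 3.59% lower. For WQ over control it called Cat and Sod3 higher and Sod1 and Gpx3 lower, where it called 5.37% of all genes higher and 1.57% lower. For WQ over WD, the log2 fold change was positive for 7 of the 9 enzymes and negative for Sod2 and Sod3. Its median was 0.10 over the enzymes and 0.02 over all genes. For WQ over control, 0 of 9 were higher and 2 of 9 were lower, Sod1 and Gpx3, where 5.01% of all genes were higher and 1.65% lower. The comparisons share the mice of each diet, so these counts are not independent of each other.

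Markers of macrophages, which gather in the fat of obese mice, also differed between the diets. The summed signal of 12 macrophage markers ran from 7620 to 18100 in control mice, from 15900 to 32800 in WD mice and from 10600 to 25300 in WQ mice. All 12 of them were higher in WD mice than in control mice, and for WQ over WD all 12 had negative values, of which 0 passed the limma test and 12 had an unadjusted p under 0.05. Adgre1, which encodes the macrophage antigen F4/80, rose by a log2 fold change of 1.86 (adjusted p = 6.4e-06) and had -0.69 in WQ mice (adjusted p = 0.14). Fewer cells of a type and less RNA per cell cannot be told apart in whole tissue, and the part of macrophage numbers in the levels of the enzymes was not tested.

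The genes most like each enzyme over the 27 arrays were taken from 9088 genes with a mean signal above the median of all genes. Sod3 was most like Serpina3n, a secreted protease inhibitor (Pearson r = 0.958), and Cd59a, a complement inhibitor (r = 0.933). Sod1 was most like Ndufs3, a subunit of respiratory complex I (r = 0.914), and Sfxn1, a mitochondrial serine carrier (r = 0.909), and Sfxn1 also led the list of Gpx3 (r = 0.903), followed by Rbbp4 (r = 0.883). Prdx3 was most like Dnaja3, a mitochondrial chaperone (r = 0.933), and Ddhd2, a phospholipase (r = 0.925). Each of these pairs for Sod1, Prdx3 and Gpx3 kept an r of at least 0.735 after the mean of each diet was taken out.

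For the other enzymes the likeness was lower. Sod2 was most like the collagen gene Col12a1 (r = 0.871) and Dock8 (r = 0.862), Gpx4 like Tdrkh (r = 0.824) and Flacc1 (r = 0.818), and Prdx2 like Eola1 (r = 0.819) and Ankrd13c (r = 0.811). Gpx1 was most like H6pd, the hexose-6-phosphate dehydrogenase of the endoplasmic reticulum (r = 0.803), and Ypel5 (r = 0.783), and Cat like Lsm12 (r = 0.787) and Adsl, an enzyme of purine synthesis (r = 0.784). By Spearman's rank correlation the values were 0.747 and 0.755 for Sod2, 0.758 and 0.62 for Gpx4, and 0.69 and 0.666 for Prdx2. Those of Gpx1 were 0.854 and 0.788, and those of Cat 0.73 and 0.759. Control replicate 6, the array with the highest testis markers, had the highest Gpx4 and the lowest Prdx2 signal of the control mice. Its part in these values was not tested. All these correlations share the mice, the diets and the scaling of the arrays, and they are given as a description.

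Around the enzymes, genes that produce superoxide were higher in WD mice. Of 7 superoxide sources measured, 6 were higher in WD mice than in control mice and 0 were lower, with a median log2 fold change of 1.20. Cyba and Cybb, the membrane subunits of the phagocyte NADPH oxidase, rose by 1.53 and 1.65 (adjusted p = 1.35e-04 and 1.9e-04), Ncf4, a cytosolic subunit, by 1.17, and Nox4, an oxidase that releases hydrogen peroxide, by 1.20 (adjusted p = 5.4e-05). Xdh, xanthine dehydrogenase, had 0.13 and did not pass. In WQ mice all 7 had negative values against WD, with a median of -0.51, and 0 passed. The lowest adjusted p was that of Ncf1, with -0.85 and 0.12. Phagocytes carry several of these oxidase subunits, and the 12 macrophage markers moved alongside, with a median log2 fold change of 1.64 for WD over control, and their part in these levels was not tested.

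Of 4 genes of the Nrf2 switch and its targets, only Hmox1, heme oxygenase 1, rose in WD mice, by a log2 fold change of 1.46 (adjusted p = 8.4e-04), and it had -0.72 with WQ over WD (adjusted p = 0.25). Nfe2l2, which encodes Nrf2 itself, had 0.14 in WD mice and -0.22 in WQ mice (adjusted p = 0.35 and 0.28), and Nqo1, a quinone reductase, had 0.07 and 0.22 (adjusted p = 0.79 and 0.57). Hmox1 is also made by macrophages, whose markers were higher in WD mice too, and their part in its level was not tested.

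Among the relatives of the enzymes, 1 of 7 measured was higher in WD mice and 0 were lower. That was Gpx7, a peroxidase of the endoplasmic reticulum, which rose by 0.64 (adjusted p = 2.2e-04), with 8.26 ± 0.35 in control mice, 8.90 ± 0.11 in WD mice and 8.72 ± 0.22 in WQ mice (SD, n = 9). Gpx5, the peroxidase of the epididymis, was dim on all diets, with means of 4.13, 3.94 and 3.88. None of the 7 passed for WQ over WD.

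Of 15 genes of the thioredoxin and glutathione systems, 2 were higher and 2 were lower in WD mice. Srxn1, sulfiredoxin, which repairs overoxidized peroxiredoxins, rose by 0.48 (adjusted p = 8.7e-04). Every WD mouse lay above every control mouse in Srxn1, as was so for 0.94% of all genes. Glrx, glutaredoxin, rose by 0.79 (adjusted p = 0.0054). Glrx2, the mitochondrial glutaredoxin, fell by 0.44 on the log2 scale (adjusted p = 0.0015), with every WD mouse below every control mouse. The share of all genes without overlap in that direction is not given here. Txnrd3, a thioredoxin reductase of testis, fell by 0.81 (adjusted p = 0.048) in a comparison where a control array carried testis transcripts. Of 9 control mice, 6 lay above every WD mouse in Txnrd3, and the part of testis RNA in that difference was not tested. With WQ over WD 0 of 15 passed, and the lowest adjusted p was that of Txn2, the mitochondrial thioredoxin, with 0.26 and 0.088.

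Genes that supply the enzymes were read next. Of 5 genes that provide NADPH, Pgd, of the pentose phosphate pathway, was higher in WD mice by 0.27 (adjusted p = 0.023), and Nnt, the mitochondrial transhydrogenase, had -0.29 (adjusted p = 0.19). The Nnt value is a transcript signal, and whether these mice make working Nnt protein was not tested. Against control, Pgd and Me1, malic enzyme, were higher in WQ mice, by 0.44 and 0.47. Of 8 genes for selenocysteine, the amino acid that glutathione peroxidases 1, 3 and 4 carry, Selenop, the selenium transport protein, was higher in WD mice by 0.13 (adjusted p = 0.026), and none passed with WQ over WD.

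The surroundings of Cat and of Prdx3 were also read. Of 15 peroxisome genes, 2 were higher in WD mice and 0 were lower, Hsd17b4 of peroxisomal fat oxidation by 0.18 (adjusted p = 0.040) and the assembly factor Pex16 by 0.33 (adjusted p = 0.015). For WQ over WD 0 of 15 passed, while 11 had positive values and 5 of these an unadjusted p under 0.05, with a median of 0.17. The lowest adjusted p was that of Pex11a, a factor of peroxisome division, with 0.45 and 0.081. Of 16 mitochondrial housekeeping genes, 3 were lower in WD mice and 0 were higher, with a median of -0.11. Clpp, a protease of the matrix, fell by 0.53 (adjusted p = 5.6e-04), Hspa9, a chaperone, by 0.25 (adjusted p = 0.0067), and Tfam, which packs mitochondrial DNA, by 0.21 (adjusted p = 0.041). Clpp was the only gene of these lists to pass for WQ over WD, where it rose by 0.47 (adjusted p = 0.046), from 8.84 ± 0.16 to 9.30 ± 0.20 (SD, n = 9). That call was lost, as for every gene higher in this comparison, with equal medians, without a variance trend and with the mean of all probe sets. The same held without the arrays high in liver markers, and without WD replicate 7 or 8 or WQ replicate 1, 2, 3 or 4.

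**Figure D5:**
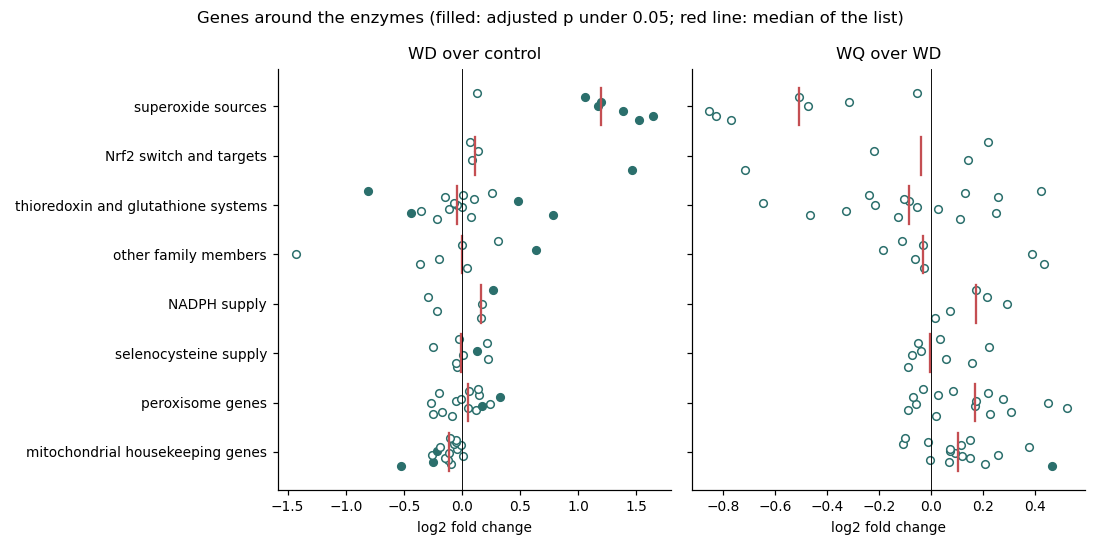
Log2 fold change (x axis) of each gene in 8 lists around the enzymes (y axis) for WD over control (left) and for WQ over WD (right), 1 point per gene from 9 mice per diet. Filled points had an adjusted p under 0.05, and red lines mark the median of each list. Superoxide sources lay to the right in WD mice, and in WQ mice only Clpp is filled.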

How the data were processed

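RNA of the EAT of 27 mice was measured, 1 array per mouse. The authors labelled it with a 3′ IVT kit, hybridised it to Affymetrix mouse genome arrays, and made the deposited values, which are linear signal intensities, with Microarray Suite 5.0, GeneSpring 11.5 and GeneChip Operation Software 1.4. These values may not have been scaled between arrays, and their medians differed. Here, quantile normalization put all arrays on 1 distribution, values under 1 became 1, and log2 was taken. At very high signals such values are set by rank. Probe sets annotated to several genes (932 of 45101) or to none in the table used (9211) were left out, and gene names are those of the platform annotation. No 2 arrays were identical.

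Genes were tested with limma 3.58.1 in R 4.3.3, on the 27 arrays together, with a mean for each diet, a variance trend and Benjamini-Hochberg adjustment over 18194 genes at 0.05. Exact two-sided permutation tests used 48620 splits of 9 against 9 mice. Fold changes are on the log2 scale, and intervals are 95%. The number of arrays limits the precision. Pathway and marker lists came from general knowledge, and from each list the genes named were those past the threshold for WQ (Western diet containing quercetin) over WD (Western diet), at most 4 with the smallest adjusted p for WD over control, or the 2 with the smallest p where none passed, with Gpx5, Nnt, Nfe2l2, Hmox1, Nqo1 and Selenop in any case. Beside each enzyme the 2 most correlated genes were named. The enzymes and lists were chosen with earlier results of these data known. Of the genes listed, 22 had no probe set of their own in the table.

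Alternatives covered the scaling (none, or equal medians), the low values (a floor of 32, or a pseudocount of 16), a filter on dim genes, the choice of probe sets, the model (no trend, array weights, only the diets compared, the replicate number as a block), the test (that of the methods, or exact permutation), and leaving out each array. Leaving out arrays with markers of other tissues and reading each further probe set were chosen after seeing the data. The code was tested on simulated data. Python 3.11.15 with matplotlib 3.10.9 made the figures.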

Additional observations from a re-analysis of the deposited data

Results flagged for a closer look

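Each enzyme was checked in each diet for a mouse apart from the other 8, and 3 of 27 groups had one, where chance gives about 1 in 20. Prdx2 was lowest on WD replicate 2, at 10.78 against 10.90 in the next mouse. Prdx3 was highest on WQ replicate 3, at 11.21 against 10.79. Sod3 was lowest on the same array, WQ replicate 3, at 9.09 against 9.74. Gpx3 was also highest of its group there, at 11.74, without being apart from the next at 11.22.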

How the results depend on the processing

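The call of Sod3 as higher and of Gpx3 as lower in WD than in control mice held with each of 27 arrays left out and under the 14 other alternatives run over all enzymes. Sod1 there kept its direction and lost its call with equal medians (-0.21), while Prdx3 lost it with no normalization (-0.28), with equal medians (-0.17) and without the arrays high in liver markers (-0.33). Cat in WQ over WD passed with the dim genes left out (adjusted p = 0.046), array weights (0.0094), the 2 diets alone (0.022) and the test of the methods (0.020), but in no other fit, nor with 1 array left out (0.055 to 0.19). The causes of these changes were not tested.

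The number of enzymes higher in WD than in control mice, 1 above, was 2 with equal medians, the dim genes left out and array weights (Sod2 added), and 1 to 2 with 1 array left out (2 without control replicate 1, 3 or 7 or WD replicate 9). The number lower was 1 with equal medians. The number higher in WQ over WD, 0 above, was 1 with the dim genes left out, array weights, the 2 diets alone and the test of the methods. The number higher in WQ over control, 0 above, was 2 with the dim genes left out and by the test of the methods, 1 with array weights, and 0 to 2 with 1 array left out (control replicates 1, 3, 7, 8 and 9, WD replicates 4 and 5, and WQ replicate 3 raised it). The number lower there, 2 above, was 1 with no normalization, equal medians, the mean of all probe sets, no trend and the 2 diets alone, 0 without the arrays high in testis or smooth muscle or those high in liver markers, 3 with array weights, which added Prdx3, and 1 to 2 with 1 array left out. The number passing the test over the 3 diets, 5 above, was 3 with no normalization, 2 with equal medians, 3 without the arrays high in liver markers, and 4 to 6 with 1 array left out.

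Of differences that had not passed, those that changed sign for WD over control were Gpx1 (0.015) and Gpx4 (0.019) with no normalization, Gpx1 (0.13), Gpx4 (0.13) and Cat (0.091) with equal medians, and Gpx1 (0.00064) without the arrays high in liver markers. For WQ over WD they were Gpx1 (-0.052) and Gpx4 (-0.0016) with equal medians and Sod2 (0.030) with the mean of all probe sets. For WQ over control Gpx1 was -0.0020 with array weights and -0.021 without the arrays high in testis or smooth muscle markers. Further probe sets reversed Sod1, which had passed (0.06 for WD over control and 0.19 for WQ over control), and Sod2 (-0.15 for WD over control, and 0.17 and 0.20 for WQ over WD). With 1 array left out, the WD over control values ran from -0.038 to 0.0026 for Gpx1, from -0.057 to 0.026 for Gpx4, from -0.0092 to 0.068 for Prdx2 and from -0.10 to 0.014 for Cat, and the WQ over control value of Gpx1 ran from -0.0045 to 0.036. The Gapdh 3′ to 5′ difference of WD from control ran from -0.23 to -0.15, and it passed without control replicate 5 or 6, at a lowest adjusted exact permutation p of 0.022 (n = 9 or 8).

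With the replicate number as a block, the number of enzymes lower in WQ over control was 1, Sod1 having an adjusted p of 0.061, and no other enzyme changed its call. Of 27 pairs of arrays with the same number, 10 had a correlation over 0.1, and 3 of 27 arrays correlated best with their own number, so the numbers were not taken as pairs.

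Over all genes, the calls for WQ over WD, 46 higher and 15 lower, became 0 and 0 without a trend or with the mean of all probe sets, 6 and 2 with the block, 135 and 65 with the dim genes left out, 762 and 617 with array weights, 485 and 288 with the 2 diets alone, 83 and 17 without the arrays high in testis or smooth muscle and 0 and 0 without those high in liver markers, and 0 to 306 calls in all with 1 array left out (0 without WD replicate 7 or WQ replicate 1, 2, 3 or 4, and 306 without control replicate 6). For WD over control, 3220 calls became 1815 with no normalization, 5102 with all 34958 probe sets in the fit and 1686 without the arrays high in liver markers. For WQ over control, 1212 became 306 with no normalization, 502 with equal medians, 2019 with all probe sets, 440 with the 2 diets alone, 658 and 331 without the arrays high in testis or smooth muscle and in liver markers, and 708 to 1872 with 1 array left out. The share of calls higher was 63.7% in WD over control against 79.9% with equal medians, 75.4% in WQ over WD against 100% of 3 with no normalization and 0% of 3 with equal medians, and 75.2% in WQ over control against 87.6% with no normalization.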
